A study of Mus musculus with 4 samples.

Results

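The genes described here are 10 genes of blood and lymph vessel growth: the ligands Vegfa and Vegfc, the receptors and co-receptor Flt1, Kdr, Flt4 and Nrp2, the angiopoietin gene Angpt2 and the receptor gene Tie1, and the lymphatic endothelial genes Pdpn and Lyve1. They were taken by name as the probe sets annotated to exactly 1 of these symbols. This gave 10 probe sets, 1 for each gene, out of 30604 named probe sets for 30142 genes, and each of the 10 carried the chromosome of its gene in its identifier. On all 4 arrays every one of the 10 signals fell between the lower and upper quartile of the negative-control probe sets, as did 80.4% of all genes, and no difference of these genes passed a test. The values below therefore describe signals in the range of background and not a level of expression.

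The arrays measured total RNA of hepatic macrophages isolated from the liver of male mice of strain C57BL/6J under a disease model labelled CRCLM, in a series about VEGFC and colorectal cancer spread in the liver. The 4 groups had 1 array each: fraction m and fraction p after an antibody against the chemokine CCL3, and fraction m and fraction p after an isotype control antibody. The fraction names join the macrophage surface protein F4/80 and the myeloid surface protein CD11b to the letter m or p, which the labels do not spell out. All groups shared the strain, sex and disease model, and the sources used here do not give ages, doses or the number of animals behind an array. Nothing in the labels says that arrays came from separate animals, so the p-values measure only the spread left between these arrays. In the fit used below, that spread holds any change of the antibody difference between fractions together with noise.

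Vascular endothelial growth factors are secreted proteins that bind receptor tyrosine kinases on endothelial cells. VEGFA acts mainly on blood vessels through KDR (VEGFR2), while FLT1 (VEGFR1) binds it tightly with weak signalling and is also made by monocytes and macrophages. VEGFC acts on lymphatic endothelium through FLT4 (VEGFR3), with NRP2 as a co-receptor, and tumour-associated macrophages are a known source of both ligands. Angiopoietin 2 binds TEK (TIE2), and TIE1 is the partner receptor that modulates it. LYVE1, a hyaluronan receptor, marks lymphatic vessels but also liver sinusoidal endothelium and some tissue macrophages, and PDPN, a membrane glycoprotein of lymphatic endothelium and some fibroblasts, binds the receptor CLEC1B on platelets and Kupffer cells.

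Signals are taken here as log2 values. The authors made them with RMA, a method that usually corrects background, normalises arrays and sums up the probes of a set. The median transcript cluster had a signal between 6.18 and 6.21 on the 4 arrays. The 5222 negative-control probe sets had medians from 6.32 to 6.39, with a lower quartile of 5.08 to 5.12 and an upper quartile of 7.88 to 8.20. Their 95th percentile was 11.8 to 12.1, so some of them were bright. The labelled cell type was checked against 19 transcripts that macrophages make in abundance, which had a median of 5.99 over all arrays and array medians from 5.96 to 6.04, below the median of the negative controls. Of these 19, 6 had a mean above the negative-control median of 6.34. Itgam, which encodes CD11b, and Adgre1, which encodes F4/80, had means of 6.26 and 6.43, and Ccl3, the gene of the antibody's target, had a mean of 7.72. In the same order their mean differences were -0.02, -0.04 and -0.36 for fraction p minus m. For anti-CCL3 minus isotype they were 0.20, -0.17 and 0.00. These arrays therefore do not show the 19 macrophage transcripts, as a group, above background. Levels cannot be set against each other between genes, because probe sets bind their targets with different strength.

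Vegfa, the main ligand of blood vessel growth, had anti-CCL3 signals of 7.23 (m) and 7.10 (p), beside isotype signals of 7.22 (m) and 7.36 (p), where the letter in parentheses is the fraction. The arrays of fraction m lay between those of fraction p, so neither the antibody groups nor the fractions separated. Its signals stood at percentiles 63.3 to 67.4 of the negative controls on the same arrays, and at percentiles 83.5 to 88.1 of all named genes. Vegfc, the lymphatic ligand named in the title of the series, had anti-CCL3 signals of 6.05 (m) and 5.84 (p), beside isotype signals of 5.97 (m) and 5.79 (p). Both arrays of fraction m lay above both arrays of fraction p, whereas the antibody groups overlapped. Over all genes 30.6% were lower in fraction p in both antibody groups, a looser condition. The share of genes whose fractions part in this way was not counted. Its signals stood at percentiles 38.5 to 43.5 of the negative controls and 27.7 to 42.2 of all named genes. These arrays therefore do not show whether the macrophages carried Vegfc transcript.

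Among the receptors, Flt1 had anti-CCL3 signals of 6.63 (m) and 6.48 (p), beside isotype signals of 6.50 (m) and 6.55 (p). Antibody groups and fractions overlapped, and the 4 signals spanned 0.15 on the log2 scale. Kdr, the main signalling receptor of VEGFA, had anti-CCL3 signals of 5.56 (m) and 5.52 (p), beside isotype signals of 5.65 (m) and 5.61 (p). Both isotype arrays lay above both anti-CCL3 arrays, within a range of 0.12, the narrowest of the 10 genes. Flt4, the receptor of VEGFC, had anti-CCL3 signals of 5.67 (m) and 5.65 (p), beside isotype signals of 5.84 (m) and 5.67 (p). Its isotype array of fraction m was the highest and the other 3 lay within 0.03 of each other. The fractions overlapped, and the antibody groups were parted only by 5.669 (anti-CCL3, m) against 5.674 (isotype, p). The share of all genes whose antibody groups part, as in Kdr and Flt4, was not counted. In both fractions 21.6% of all genes were lower in the anti-CCL3 group, a looser condition. Nrp2, the co-receptor, had anti-CCL3 signals of 5.82 (m) and 5.74 (p), beside isotype signals of 5.79 (m) and 5.88 (p), with overlap in both comparisons.

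The angiopoietin genes gave similar signals on 3 arrays and a lower one on the isotype array of fraction p. Angpt2, a destabilising ligand of vessels, had anti-CCL3 signals of 6.25 (m) and 6.28 (p), beside isotype signals of 6.26 (m) and 6.06 (p). Tie1 had anti-CCL3 signals of 6.34 (m) and 6.35 (p), beside isotype signals of 6.39 (m) and 6.16 (p). In each gene the isotype array of fraction p was the lowest of the 4. The median transcript cluster had about the same signal on this array as on the others, 6.18, while the 99th percentile was 14.5 against 15.2 to 15.6. The part of such array differences in the values of Angpt2 and Tie1 was not tested. After quantile normalisation, which gives all arrays the same distribution, the fraction differences of Angpt2 and Tie1 were -0.07 and -0.10, against -0.09 and -0.12 in the deposited values.

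Of the lymphatic genes, Pdpn had anti-CCL3 signals of 6.84 (m) and 6.55 (p), beside isotype signals of 6.60 (m) and 6.88 (p). The 2 high arrays came from different antibody groups and different fractions, so Pdpn separated neither comparison. Lyve1 had anti-CCL3 signals of 6.25 (m) and 5.92 (p), beside isotype signals of 6.05 (m) and 5.84 (p). Both arrays of fraction m lay above both arrays of fraction p, the same order of arrays as in Vegfc. The share of all genes with such a parting was not counted. Lyve1 had the widest range of the 10 genes, 0.41 on the log2 scale, and 39.2% of all 30142 genes had a wider range. The median range of the 10 genes was 0.23, against 0.32 for all genes and 1.63 for the negative controls, which are thus not a like measure of noise.

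**Figure D1:**
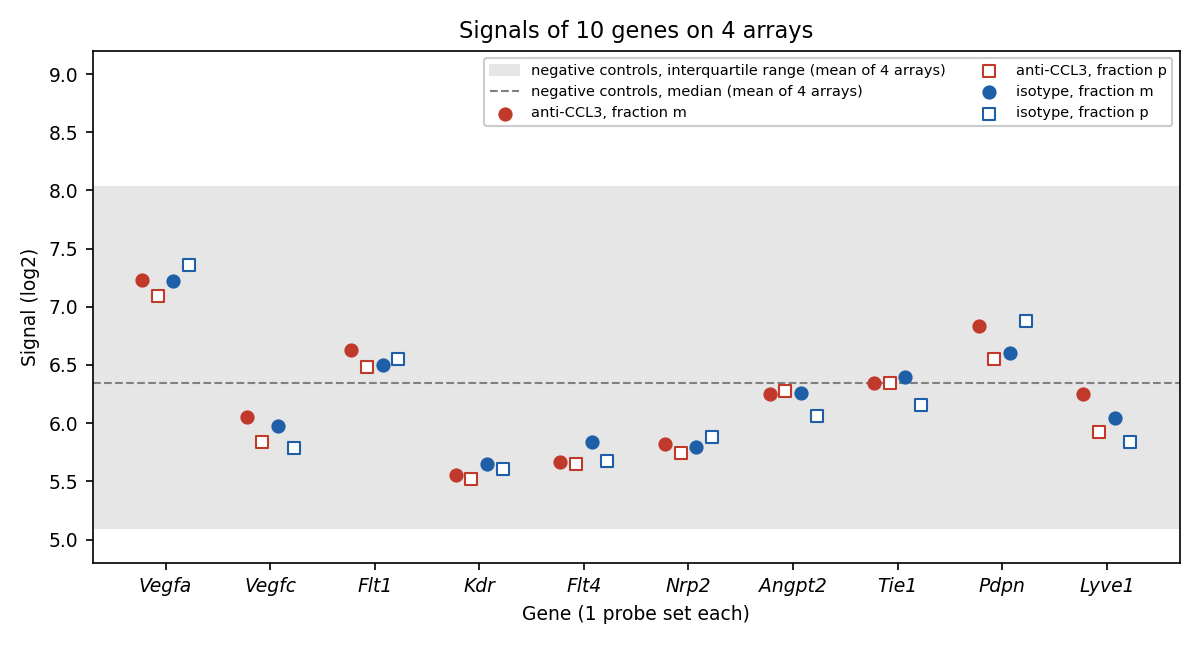
Signals (log2) of the 10 genes, 1 point per array, coloured by antibody and with filled circles for fraction m and open squares for fraction p; the grey band is the interquartile range of the negative-control probe sets and the dashed line their median, each averaged over the 4 arrays. All 40 points lie inside the band, from 5.52 in Kdr to 7.36 in Vegfa, and 14 of them lie above the negative-control median of their own array.

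Setting anti-CCL3 beside the isotype control asks how blocking CCL3 is reflected in hepatic macrophage RNA, and for these genes whether signals for vessel growth differ with it. Of the 10 genes, 5 had a higher and 5 a lower mean signal after anti-CCL3 antibody, with a median log2 difference of 0.00, against 0.02 over all 30142 genes, and Flt1, at 0.03, turned to the lower side after quantile normalisation. Lyve1 had the most positive mean difference, 0.14, from 0.20 (m) and 0.08 (p). Vegfa had the most negative, -0.13, which came from fraction p, where it was -0.26, while fraction m stood at 0.00. Of the 10 genes, 4 had paired differences of the same sign: Vegfc, at 0.08 (m) and 0.05 (p), and Lyve1 were higher, and Kdr, at -0.09 (m) and -0.08 (p), and Flt4, at -0.17 (m) and -0.03 (p), were lower. Over all genes 30% were higher in both fractions and 21.6% lower in both, so 2 and 2 of 10 are near the background.

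In the other 6 genes the antibody difference had opposite signs in both fractions, as in 47.5% of all genes. Pdpn showed this with the largest values, 0.24 (m) and -0.33 (p). Flt1 stood at 0.13 and -0.06, and Nrp2 at 0.03 and -0.14. Angpt2 stood at -0.01 and 0.22, and Tie1 at -0.05 and 0.19. Each such value compares 1 array with 1 array and has no replicate check. The median size of these differences over the 10 genes was 0.08 (m) and 0.11 (p), against 0.15 and 0.15 over all genes and 0.71 and 0.80 over the negative controls. As the negative controls differed more between arrays than genes did, they are not a like measure of noise for the 10 genes.

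For the test, limma fitted antibody and fraction as additive terms across 15071 genes whose mean signal was at or above the median of all genes, 6.16. Of the 10 genes, 5 met this level: Vegfa, Flt1, Angpt2, Tie1 and Pdpn, while Vegfc, Kdr, Flt4, Nrp2 and Lyve1 lay below it. The fitted antibody difference was -0.13 ± 0.14 (SE, 4 arrays) in Vegfa, 0.03 ± 0.13 in Flt1, 0.10 ± 0.13 in Angpt2, 0.07 ± 0.13 in Tie1 and -0.04 ± 0.21 in Pdpn. None of these passed limma's test, the Benjamini-Hochberg adjusted p lying between 0.911 and 0.993, and the share of all tested genes that passed was 0%, 0 of 15071, with 1182 at an unadjusted p below 0.05. With no filter on dim genes, where all 10 genes enter the fit and again 0% of 30142 genes passed, their adjusted p ran from 0.890 to 0.998, and 0 of the 10 had an unadjusted p below 0.05. In that fit the antibody difference was 0.07 ± 0.10 (SE, 4 arrays) in Vegfc, with a 95% interval from -0.26 to 0.39, and 0.14 ± 0.10 in Lyve1, with an interval from -0.20 to 0.49. The interval was widest in Pdpn, from -0.69 to 0.61, where the opposite signs in the fractions enter the standard error. Since background adds to the signal on both sides of a comparison, the same change in transcript gives a smaller log2 difference at these signals than in a bright probe set, and the intervals do not bound the change in transcript.

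Between the fractions, as p minus m, Lyve1 and Vegfc had the largest mean differences of the 10 genes, while Pdpn and Nrp2 were at -0.01 and 0.00. Lyve1 had log2 differences of -0.32 in the anti-CCL3 group and -0.21 in the isotype group, with a mean of -0.26. Vegfc stood at -0.21 and -0.19, with a mean of -0.20. Flt4 stood at -0.02 and -0.16 and Kdr at -0.03 and -0.04, so these 4 genes were lower in fraction p in both antibody groups, as were 30.6% of all genes. The count of 4 of 10 is close to this background. The same 4 genes had equal signs in the antibody comparison, and 37% of all genes had equal signs in both comparisons.

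In the remaining 6 genes the fraction difference changed sign between the antibody groups, against 45% of all genes. Pdpn was at -0.29 in the anti-CCL3 group and 0.28 in the isotype group, and Vegfa at -0.13 and 0.13. Flt1 was at -0.15 and 0.05, and Nrp2 at -0.08 and 0.09. Angpt2 was at 0.03 and -0.20, and Tie1 at 0.00 and -0.24. With 1 array per group, the change from 1 paired difference to the other has the same size as in the antibody comparison. It therefore adds no second observation, although opposite signs in 1 comparison do not require them in the other. The share of all genes with opposite signs in both comparisons was not counted. Of the 10 genes, 8 had a mean below 0 in this comparison, beside 54.7% of all genes. Among these 8, Pdpn turned to the other side under 3 other scalings. The median of the 10 genes was -0.07, against -0.02 over all genes.

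None of the genes passed limma's test for fraction. The fitted difference was 0.00 ± 0.14 (SE, 4 arrays) in Vegfa, -0.05 ± 0.13 in Flt1, -0.09 ± 0.13 in Angpt2, -0.12 ± 0.13 in Tie1 and -0.01 ± 0.21 in Pdpn, and the limma p after Benjamini-Hochberg adjustment lay between 0.862 and 1. The value of Nrp2, 0.00, also changed sign, after cyclic loess normalisation. With no filter on dim genes the difference in Lyve1 was -0.26 ± 0.10 (SE, 4 arrays), with a 95% interval from -0.61 to 0.08, an unadjusted p of 0.0889 and a limma adjusted p of 0.692. Vegfc had -0.20 ± 0.10 (SE), an interval from -0.52 to 0.12, and a limma adjusted p of 0.742. Over all genes 0% passed in either fit, with 1399 of 15071 at an unadjusted p below 0.05 after the filter. The standard errors of the dim genes, 0.10 for Vegfc, Kdr and Lyve1, are near the least that limma's prior allows and are not a measured spread between replicates.

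**Figure D2:**
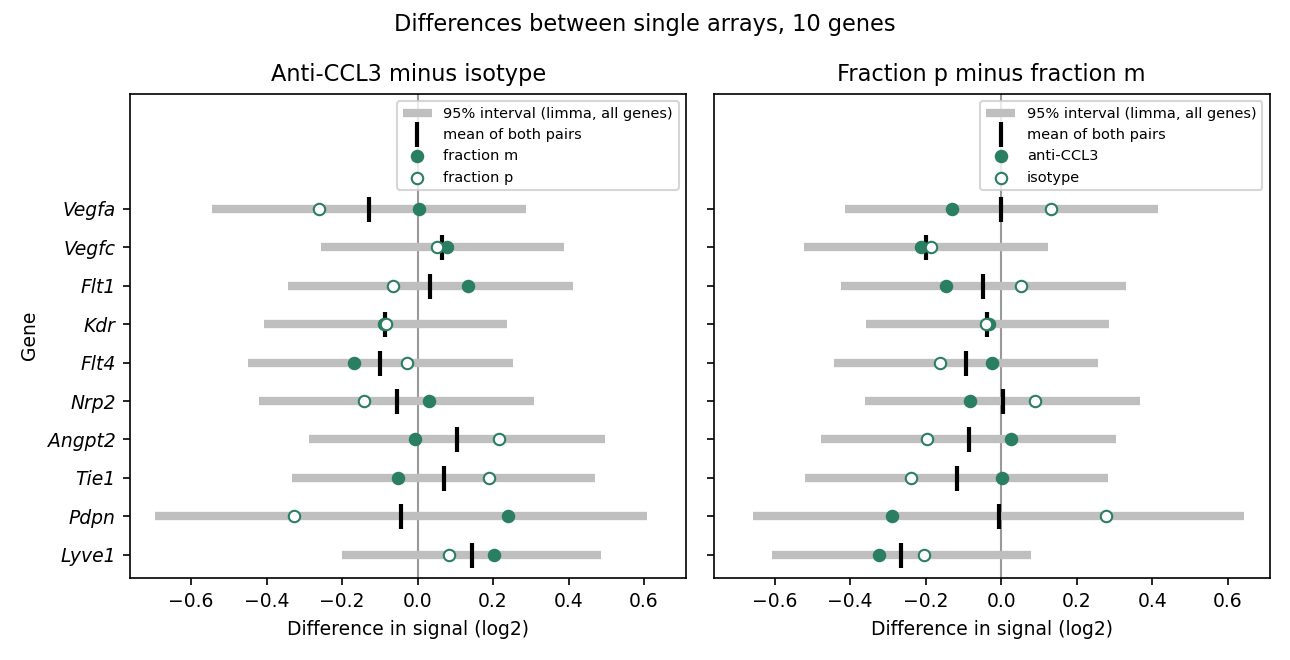
Differences in signal (log2) for each of the 10 genes, anti-CCL3 minus isotype control at left and fraction p minus fraction m at right; each circle compares 1 array with 1 array, black ticks are the mean of both pairs and grey bars the 95% interval of limma's fit with no filter on dim genes. All 10 intervals in each panel include 0. The circles of Vegfc and Kdr lie close together, and those of Pdpn lie on opposite sides of 0.

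The profile of Vegfc over the 4 arrays was set beside those of 19043 protein-coding genes, as the root-mean-square distance between log2 signals after each gene's own mean was subtracted. The nearest were Nrg1, a ligand of ERBB receptors, and Slc22a7, an organic anion transporter, at distances of 0.0069 and 0.0070, and Setd3, a histidine methyltransferase of actin, at 0.0074. The nearest to Lyve1 were Fbxw28, an F-box protein gene, at 0.0042, Creld2, a protein of the endoplasmic reticulum stress response, at 0.014 and Tle4, a transcriptional co-repressor, at 0.014. Within a distance of 0.05 lay 619 protein-coding genes for Vegfc and 170 for Lyve1. Over 4 arrays such likeness is common, and it is given as a description only.

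The other ligands and receptors of the family, from lists chosen for this pathway, did not pass the test either where they were tested. The ligand Vegfb had a mean signal of 6.29 and mean differences of -0.03 for antibody and 0.02 for fraction. Pgf, placental growth factor, a ligand of FLT1, had anti-CCL3 signals of 7.25 (m) and 7.08 (p), beside isotype signals of 6.90 (m) and 7.50 (p). Its antibody difference was 0.35 (m) and -0.42 (p), the same crossing as in Pdpn with larger values. Vegfd, the second lymphatic ligand, lay below the level for testing at a mean of 6.04, with mean differences of 0.03 and -0.10. Of 3 tested ligands, 0 were higher and 3 lower in the anti-CCL3 group (median -0.03, against 0.04 over all tested genes), and of all 5 ligands 2 were higher and 3 lower, with Vegfc and Vegfd on the higher side.

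In the angiopoietin and Tie list 7 of 8 genes had their own probe set, of which 3 were tested. All 3 tested genes were higher in the anti-CCL3 group, with Angpt4, an angiopoietin, at 0.14 and Tie1 at 0.07 as the extremes. All 3 were lower in fraction p, between Angpt4 at 0.00 and Tie1 at -0.12, although Angpt4 took the other sign after each of the 3 scalings tried. Over all tested genes 59.9% were higher in the anti-CCL3 group, and 9197 of 15071 were lower in fraction p. The counts of tested genes in this list, in the ligands and in the lists below stand beside these shares. The genes below the level for testing were Angpt1, which stabilises vessels, at mean differences of -0.05 and -0.03 for antibody and fraction, and its receptor gene Tek at 0.07 and -0.03. Angptl1, an angiopoietin-like gene, stood at -0.02 and 0.19, and Ptprb, the endothelial phosphatase that acts on TEK, at 0.13 and -0.03. None of the 3 tested genes passed limma's test in either comparison.

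In the list of VEGFC processing and lymphatic development, which includes the VEGFC-activating genes Ccbe1 and Adamts3 and the lymphatic master regulator Prox1, 5 of 19 genes were tested. Of these, 3 were higher and 2 lower in the anti-CCL3 group, between Gata2, a transcription factor of lymphatic valves, at 0.29 ± 0.13 (SE, 4 arrays) and Itga9, an integrin of lymphatic valves, at -0.09. In fraction p 1 was higher and 4 lower, between Itga9 at 0.06 and Clec1b, the receptor of PDPN, at -0.28 ± 0.15 (SE). The median fraction difference was -0.18 over the 5 tested genes and 0.00 over all 19, so the median of the tested genes was not that of the list.

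Hypoxia response genes, to which Vegfa belongs, had 10 of 16 genes tested. For antibody 4 were higher and 6 lower, with a median of -0.06, between Egln3, an oxygen sensor, at 0.47, from 0.15 (m) and 0.79 (p), and Bnip3, a mitophagy receptor, at -0.13, from 0.11 (m) and -0.38 (p). For fraction 5 were higher and 5 lower, between Egln3 at 0.32, from 0.64 in the anti-CCL3 and 0.00 in the isotype group, and Ldha, lactate dehydrogenase A, at -0.19. Among Notch and other angiogenesis genes 8 of 23 were tested, with 4 higher and 4 lower for antibody and 3 higher and 5 lower for fraction. The antibody extremes were Hey2, a Notch target, at 0.68, from 0.20 (m) and 1.15 (p), and Mmp14, a membrane metalloproteinase, at -0.12, from -0.52 (m) and 0.29 (p). The fraction extremes were Pgf at 0.21, from -0.17 in the anti-CCL3 and 0.60 in the isotype group, and Aplnr, the apelin receptor, at -0.23, which became -0.05 after quantile and -0.08 after cyclic loess scaling. None of the pathway genes passed limma's test in either comparison, where 0% of all tested genes passed.

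Endothelial cells are the usual carriers of most of these transcripts in liver, so their markers were read too. Fewer endothelial cells and less RNA per cell cannot be told apart in bulk samples. Of 11 lymphatic endothelial markers with a probe set, 4 of them among the 10 genes, the median signal was 5.81, and of 15 liver sinusoidal endothelial markers 5.75. The 17 vascular endothelial markers had a median of 6.05, led by Ecscr, an endothelial surface protein gene, at 7.35. Array medians of these lists ran from 5.74 to 5.89, from 5.72 to 5.78 and from 6.04 to 6.11, all below the negative-control medians.

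Few endothelial markers were bright enough for testing. In the lymphatic list these were Thy1, a surface glycoprotein, at 0.19 for antibody, from 0.36 (m) and 0.01 (p), and -0.05 for fraction, which was 0.00 after quantile scaling, and Pdpn. In the sinusoidal list Clec4g, a lectin, was at 0.11 for antibody, from 0.39 (m) and -0.16 (p), and at -0.03 for fraction, which turned to 0.05 after quantile and 0.01 after cyclic loess scaling. Of 5 tested vascular markers, 5 were higher after anti-CCL3 antibody, against 59.9% of all tested genes. They ran from Esam, a junction protein, at 0.01 to Ecscr at 0.11. Of all 17 markers with a probe set 13 were higher and 4 lower, beside 16621 higher of all 30142 genes. This list holds 3 of the 10 genes, Flt1, Kdr and Tie1, of which Flt1 and Tie1 were tested. After quantile, median and cyclic loess scaling Esam was at -0.03, -0.01 and -0.01, and Ecscr at 0.00, 0.09 and 0.04. In fraction p 2 of the tested vascular markers were higher and 3 lower, from Tie1 at -0.12 to Esam at 0.23. Where Vegfc and Lyve1 were lower in fraction p, the sinusoidal list was lower in 12 and higher in 3 of 15 genes, with a median of -0.04, and the lymphatic list lower in 8 and higher in 3 of 11, with a median of -0.02. Over all genes 54.7% were lower in fraction p, with a median of -0.02, and 3 and 4 genes of these lists belong to the 10 genes themselves. The part of endothelial cells in the values of Vegfc and Lyve1 was not tested.

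Marker lists of other cells that the fractions could hold had medians in the same range. Kupffer cell markers had a median of 6.33 over 14 genes, monocyte markers 6.50 over 11, hepatocyte markers 6.12 over 10, and fibroblast, stellate and mesothelial markers 6.14 over 13. T and B cell markers had a median of 6.45 over 10 genes and colorectal epithelial markers 5.96 over 12. For fraction the medians over tested genes were -0.07, -0.05, -0.08, -0.04, 0.02 and 0.01 in the same order, and for antibody -0.08, 0.12, 0.11, -0.01, 0.08 and 0.06. Of 9 tested T and B cell markers, 6 were higher and 3 lower in fraction p, between Cd3d at 0.63 and Ms4a1 at -0.18. Cd3d stood at 0.59 in the anti-CCL3 and 0.67 in the isotype group, with a limma p of 0.0159 unadjusted and 0.467 adjusted. The part of T cells in the fraction differences was not tested. In none of these lists did a gene pass limma's test. As no list median exceeded the upper quartile of the negative controls, these arrays do not show which cells the signals of the 10 genes came from.

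**Figure D3:**
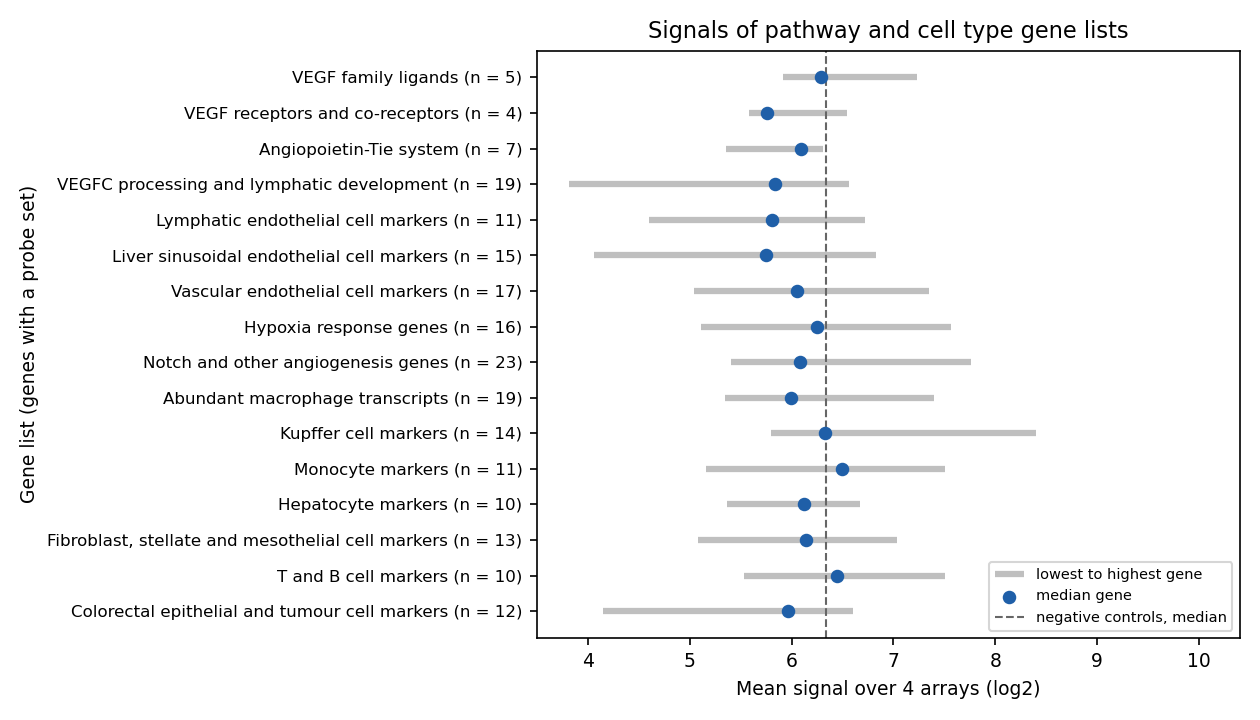
Mean signal over 4 arrays (log2) of the genes in each pathway and cell type list, with the median gene as a point and the lowest to highest gene as a bar; the dashed line is the median of the negative-control probe sets, 6.34. The medians of all lists lie between 5.75 and 6.50, and only those of monocyte and of T and B cell markers exceed the line.

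In the RefSeq annotation 5 of the 10 genes overlap another gene, which can matter where a probe set reads both. Angpt2 lies within the span of Mcph1, a microcephaly gene, and Vegfc, Flt1, Kdr and Nrp2 overlap predicted or noncoding genes on the opposite strand. The sources used here do not say how far the probe sets of these genes are specific for strand.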

How the data were processed

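Extraction used TRIzol with column purification, and the GeneChip WT Pico kit amplified and labelled the RNA (labels' protocols). The authors ran RMA in Affymetrix Expression Console, as the submitters' processing notes list, and deposited a signal for each probe set on what is taken here as the log2 scale, from RMA's usual output and a range of 2.34 to 19.9. The sources used here give neither versions nor options.

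Of 72688 probe sets, 65956 were transcript clusters. Clusters with exactly 1 symbol were named through the platform annotation, and 827 symbols were updated through RefSeq (GRCm38.p6). Each gene took its brightest cluster. limma 3.58.1 in R 4.3.3 fitted an additive model of antibody plus fraction to 4 arrays with empirical Bayes moderation, leaving 1 residual degree of freedom to which the prior added 1.69, and the Benjamini-Hochberg threshold was 0.05. This residual degree of freedom holds any change of the antibody difference between fractions together with noise. The fit was tested on simulated data of this layout, where it passed changed genes only at the largest change simulated, so a count of 0 does not show that genes were alike. The number of arrays limits the precision, and differences within a fraction or antibody group have no replicates. The fraction term pairs the arrays across antibody groups.

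The 10 genes and all gene lists were chosen with earlier results of these data known. The rule for named genes took the 10 genes, all genes of the ligand, receptor and angiopoietin lists, the extremes of each list, the 3 nearest profiles of Vegfc and of the gene with the widest range, and Ccl3, Itgam and Adgre1. For the lists of other cell types gene numbers and medians are given here. Their extremes are left out, except for the fraction difference of T and B cell markers and the brightest Kupffer cell marker. Nrp1, Angptl2, Egfl7 and Ccl21a had no cluster of their own and are not analysed here.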

Additional observations from a re-analysis of the deposited data

Results flagged for a closer look

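For 6 of the 10 genes the difference in 1 factor had opposite signs in the groups of the other factor, each resting on 1 array a group, and the change of sign was not tested. As fraction p minus fraction m of the antibody difference, the change was -0.57 in Pdpn, -0.26 in Vegfa, -0.20 in Flt1, -0.17 in Nrp2, 0.22 in Angpt2 and 0.24 in Tie1 on the log2 scale. The same values with the other sign, 0.57, 0.26, 0.20, 0.17, -0.22 and -0.24, are the isotype minus anti-CCL3 change of the fraction difference. Opposite signs in the antibody comparison occurred in 47.5% of all genes, and in the fraction comparison in 45%.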

How the results depend on the processing

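The count of genes that passed limma's test was 0 for antibody and 0 for fraction under each alternative that has a test: 3 scalings, no filter on dim genes, the mean of a gene's probe sets, a variance prior that follows the mean, and the other factor left out. With 1 residual degree of freedom the test seldom passes a gene, so these counts say nothing about stability. The smallest adjusted p over these was 0.246 for antibody, after cyclic loess normalisation, and 0.134 for fraction, with antibody left out of the model. The median antibody difference of the 10 genes, 0.00, ran from -0.03 to 0.00 under these, and from -0.05 to 0.02 with 1 array left out, which leaves no residual degree of freedom and so no test. The median fraction difference, -0.07, became -0.056 with quantile, -0.046 with median and -0.062 with cyclic loess scaling, and from -0.11 to -0.10 with 1 array left out. The median percentile of the 10 genes was 45.6 among negative controls and 48.3 among all named genes. Direction turned after quantile normalisation for antibody in Flt1 at -0.0043, Ccl3 at -0.15 and Esam at -0.031, and for fraction in Pdpn at 0.061, Angpt4 at 0.019, Itgam at 0.0019, Thy1 at 0.0045 and Clec4g at 0.048. After median centring it turned for antibody in Ccl3 at -0.017 and Esam at -0.013, and for fraction in Pdpn at 0.015, Angpt4 at 0.016 and Itgam at 7.7e-05. After cyclic loess normalisation it turned for antibody in Ccl3 at -0.11 and Esam at -0.015, and for fraction in Nrp2 at -0.0014, Pdpn at 0.030, Angpt4 at 0.0075 and Clec4g at 0.013. The cause was not tested. No paired analysis was possible because the labels carry no replicate numbers, other than through the fraction term of the fit. Signal over background limits all values, since each of the 10 genes had signals no higher than the upper quartile of the negative controls.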
